A study of Mus musculus with 2 samples.

Results

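The cathepsins Ctsa, Ctsb, Ctsc, Ctsd, Ctsh, Ctsl, Ctss and Ctsz are lysosomal proteases. They were taken by symbol from the deposited gene table, where all 8 were present among 28692 genes, and their unique molecular identifiers (UMIs, tags that count captured RNA molecules) were read in myeloid, Kupffer, dendritic and B cells of the mouse liver. The rule that takes them uses the symbols and no measured value.

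Cathepsins are made as inactive proenzymes, sorted to endosomes and lysosomes by mannose phosphate tags, and activated there at acid pH. In antigen-presenting cells they degrade engulfed protein and trim the invariant chain that occupies MHC class II molecules, and in macrophages part of the enzyme pool is secreted and cuts extracellular matrix. Cystatins and some serpins inhibit the cysteine cathepsins inside and outside the cell.

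The study compared hepatic mononuclear cells of C57BL/6 mice with and without liver metastases of MC38, a mouse colon carcinoma line. In the metastasis group 500000 MC38 cells were injected into the spleen, which was then removed, and livers were taken on day 14, from which mononuclear cells were isolated on a density gradient. In the control group PBS took the place of the cells, and its tumor label reads as no tumor. The protocol text given for both samples also describes 3000000 MC38 cells placed under the skin, and the sample titles name this tumor, so whether control mice carried a subcutaneous tumor is not settled by the labels. Each group is 1 library of 5′ single-cell RNA that pools 3 mice, so there is no replicate, no test between conditions was possible, and every interval given here covers counting error only.

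The control library held 14258 barcodes and 91617457 UMIs and the MC38 library 19822 barcodes and 114421875 UMIs, of which 3439 and 11855 cells passed the filters; 63 barcode sequences occurred in both. Barcodes over the mitochondrial limit of 10% made up 74.8% of the control and 33.3% of the MC38 library. Classes were gated per cell by lists of 8 markers, and the 10 genes leading each class held no marker of another class. Hepatocyte RNA was carried along and more so in the MC38 library: the summed level of the 11 hepatocyte markers was 141 and 516 CPM (UMIs of a gene or list scaled to a common total per class) in monocyte- or macrophage-like cells, 108 and 816 CPM in pDC-like cells and 161 and 1699 CPM in B-like cells of the control and MC38 libraries. The part of such carried RNA in the cathepsin values was not tested. For comparison, 482 barcodes of the MC38 library were gated as hepatocytes. They held 30.5 CPM of Ctsd, 61.1 CPM of Ctsl, 30.5 CPM of Ctsb and 43.0 CPM of Ctss. Such barcodes may hold cathepsin transcripts of their own, so they do not measure carried RNA. Fewer transcripts per cell and a different mixture of cells within a class cannot be told apart in summed counts.

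The genes lie apart in the genome (GRCm38, GENCODE): Ctsa at chr2:164832873-164841032, Ctsz at chr2:174427493-174439039, Ctss at chr3:95526786-95556403, Ctsc at chr7:88278085-88310888, Ctsd at chr7:142375911-142388038, Ctsh at chr9:90054152-90076089, Ctsl at chr13:64359337-64370890 and Ctsb at chr14:63122462-63145923. Many lysosomal genes carry near their start an E-box that the factors TFEB, TFE3 and MITF bind. The letters CACGTG, which read the same on both strands, were searched in RefSeq promoter windows of 300 bases, from 250 before to 50 after the start (GRCm38.p6). Of the 8 genes 6 (all but Ctsb and Ctsh) had a window there, 7 windows in all because Ctsa has 2. The letters were in 3 of the 7 windows, against 7.15% of all 32851 windows. The stretches that hold the letters are shown, with the E-box in capitals, because Ctsd and Ctsl are the members called different between the libraries in monocyte- or macrophage-like cells. Ctsa, which also holds the letters, was not called in that class.
Ctsd, chr7:142387908-142387937, minus strand: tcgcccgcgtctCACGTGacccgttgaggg
Ctsd, chr7:142388048-142388077, minus strand: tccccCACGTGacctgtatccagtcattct
Ctsl, chr13:64370739-64370768, minus strand: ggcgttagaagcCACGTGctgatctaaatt
Ctsa, chr2:164833757-164833786, plus strand: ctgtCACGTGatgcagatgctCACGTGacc
Counted from the RefSeq start of each window, the first Ctsd match begins 98 bases before and the second 245 bases before. The Ctsl match begins 236 bases before, and the Ctsa pair spans the start of that gene's second window. These starts differ from the ends of the GENCODE spans given above. The first Ctsd stretch, the Ctsl stretch and the Ctsa stretch lie inside those spans, and the second Ctsd stretch lies outside. The longer form TCACGTGA, held by 0.974% of all windows, was present in the Ctsa stretch and in the first Ctsd stretch, and the same letters lengthened to 10 bases by a G before and a C after, held by 0.326% of windows, were in 0 of the 7. The letters were not in the windows of Ctsc, Ctss or Ctsz or in the other window of Ctsa.

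Across classes the members fell into different patterns, shown in the plot of levels by class. Cells gated as Kupffer cells, which line the liver sinusoids and clear particles from blood, had the highest Ctsa, Ctsb, Ctsc and Ctsd of all classes in both libraries. Plasmacytoid (pDC-like) cells had the highest Ctsh and Ctsl in both. The 8 members together took a median of 1.41% of a cell's UMIs in control and 1.04% in MC38 Kupffer-like cells, 0.625% and 0.638% in pDC-like cells, 0.463% and 0.591% in monocyte- or macrophage-like cells, and 0.117% and 0.127% in B-like cells. Kupffer-like cells were led by 5 of their own markers but were shallow, with a median of 1113.5 UMIs in control and 1456 in MC38, and only 40 control cells of this class passed the 10% mitochondrial limit. Kupffer-like, mature DC-like and C1q macrophage-like cells are therefore given at a limit of 30% unless 10% is named. This left 326 and 461 Kupffer-like cells with median mitochondrial shares of 20.6% and 14.1%. These cells carried more hepatocyte marker RNA than the classes given above, 2998 CPM in control and 4757 CPM in MC38, and its part in their cathepsin levels was not tested.

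**Figure D1:**
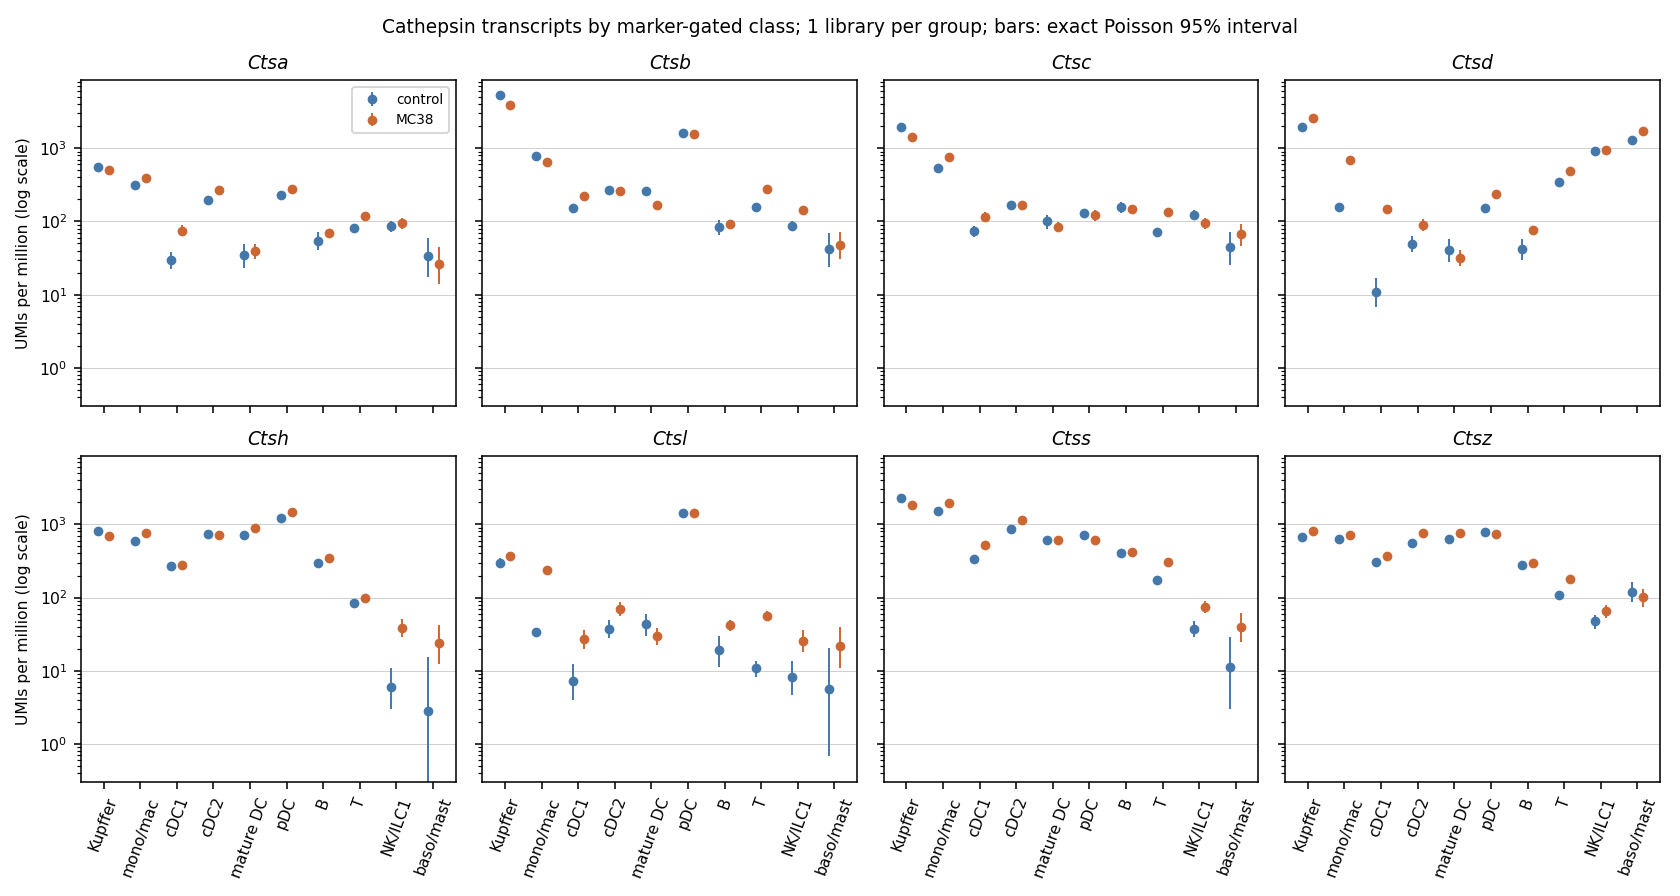
Level of each cathepsin (CPM, log scale) in 10 marker-gated classes of the control (blue) and MC38 (orange) libraries, with exact Poisson 95% intervals and 1 library per group. Ctsd is high in Kupffer-like, basophil- or mast-like and NK- or ILC1-like cells, Ctsl in pDC-like cells, and in monocyte- or macrophage-like cells the colours separate for Ctsd (158 and 694 CPM) and Ctsl (34.1 and 240 CPM).

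Cathepsin D, encoded by Ctsd, is the aspartic protease of the set and is not inhibited by cystatins. In monocyte- or macrophage-like cells Ctsd stood at 158 CPM in control and 694 CPM in MC38. This is a 4.38-fold higher level (interval 4.16 to 4.63), from 1385 and 33754 UMIs in 897 and 4132 cells. The top 5% of cells held 23.4% of these UMIs in control and 31.6% in MC38. Cells with at least 1 Ctsd UMI made up 65.0% and 94.6%, and 15.3% (13.0 to 17.8) and 41.3% (39.8 to 42.9) after each cell was thinned to 1000 UMIs. The difference was thus present in the share of cells as well as in the sum. In Kupffer-like cells Ctsd was 1956 and 2555 CPM, a log2 difference of 0.39 that stayed under 1.5-fold. The top 5% of these cells held 24.0% of the Ctsd UMIs in control and 44.3% in MC38.

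Ctsd was also high outside the phagocytes. Basophil- or mast-like cells held 1299 and 1722 CPM, and NK- or ILC1-like cells 917 and 934 CPM, a log2 difference of 0.03 with an interval from -0.08 to 0.13. T-like cells held 340 and 494 CPM. In the control library all 3 of these classes stood above monocyte- or macrophage-like cells. In the MC38 library monocyte- or macrophage-like cells stood above T-like cells and below the other two, with 844 CPM in the 238 neutrophil-like cells. Conventional dendritic, mature dendritic and B-like cells were the lowest leukocyte classes, at 11 and 147 CPM in cDC1-like, 49.1 and 89.7 CPM in cDC2-like, 40.7 and 32.0 CPM in mature DC-like and 42.2 and 76.9 CPM in B-like cells.

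Cathepsin L, encoded by Ctsl, is a cysteine endopeptidase. In pDC-like cells it was 1428 CPM in control and 1433 CPM in MC38, a log2 difference of 0.00 with an interval from -0.08 to 0.09, and 71.7% and 73.7% of cells held a UMI after thinning. Kupffer-like cells followed with 298 and 368 CPM. In monocyte- or macrophage-like cells it was 34.1 CPM in control and 240 CPM in MC38, a 7.05-fold higher level (6.29 to 7.94) from 298 and 11685 UMIs. After thinning, 2.25% (1.38 to 3.45) of control and 19.3% (18.1 to 20.5) of MC38 cells held a UMI, against 4.61% of the hepatocyte-gated barcodes of the MC38 library. Unthinned shares were 25.3% and 79.1% of the cells and 8.92% of those barcodes, whose median depth was 1161 UMIs against 11360.5 in the MC38 cells. The MC38 share was above that of these barcodes, which may hold Ctsl of their own and do not measure carried RNA. In the control library the level of 34.1 CPM (30.3 to 38.1) was above those of T-like (10.7 CPM), NK- or ILC1-like (8.32 CPM) and cDC1-like cells (7.33 CPM), while after thinning its share overlapped that of T-like cells (1.02%, 0.413 to 2.10). The summed level of the 8 epithelial or tumor markers in this class was 5.03 and 27.9 CPM, with Krt19, Cldn4 and Cldn7 at 0 in both. These markers do not gauge RNA from cells such as cluster 23 of the MC38 library, which held 994 CPM of Ctsl. Its mean log2 level of the 8 markers relative to the other clusters was -0.54. The part of carried RNA in the Ctsl value was not tested. T-like cells, at 10.7 and 56.2 CPM, and B-like cells, at 19.0 and 41.7 CPM, also held more Ctsl in the MC38 library. These levels were no higher than that of the hepatocyte-gated barcodes. MC38 clusters 1, 2 and 3 (1441, 1355 and 1194 cells), led by liver genes such as Serpina1e, Pck1 and Cyp2e1, held 53.1, 39.2 and 34.7 CPM. The T-like interval (48.0 to 65.5) overlapped that of cluster 1 and lay above those of clusters 2 and 3. The B-like interval (35.2 to 49.1) overlapped those of all these clusters. The part of carried RNA in the T-like and B-like levels was not tested.

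**Figure D2:**
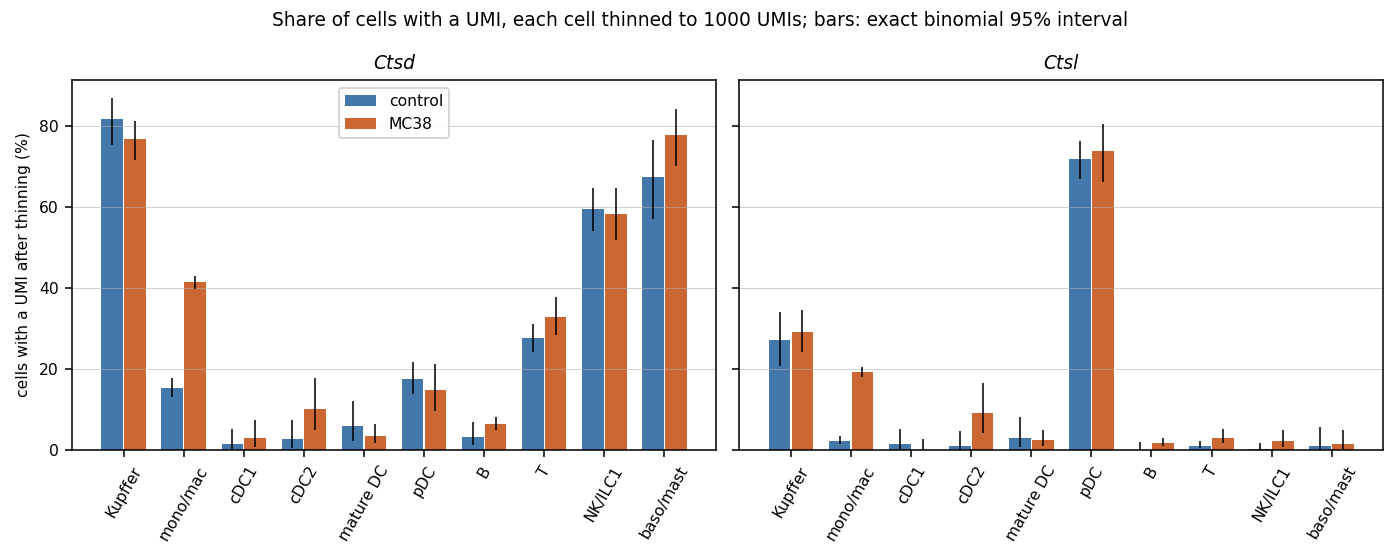
Share of cells (percent) with at least 1 UMI of Ctsd (left) or Ctsl (right) after each cell was thinned to 1000 UMIs, in the control (blue) and MC38 (orange) libraries, with exact binomial 95% intervals. In monocyte- or macrophage-like cells the share went from 15.3% to 41.3% for Ctsd and from 2.25% to 19.3% for Ctsl, while the intervals of Kupffer-like and pDC-like cells overlap.

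By the rule of size used for all genes (1.5-fold or more, an interval that excludes no change, and at least 10 UMIs in both libraries together), Ctsd and Ctsl were the 2 members called higher in MC38 monocyte- or macrophage-like cells and none was called lower. Over the 13358 genes compared in that class, 10.8% were called higher and 12.9% lower. The median log2 difference of the 8 members was 0.34, against -0.04 over all genes compared. The other 6 stayed between a log2 difference of -0.28 for Ctsb and 0.50 for Ctsc. In Kupffer-like cells none of the 8 was called, where 11.2% of genes were called higher and 8.29% lower.

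**Figure D3:**
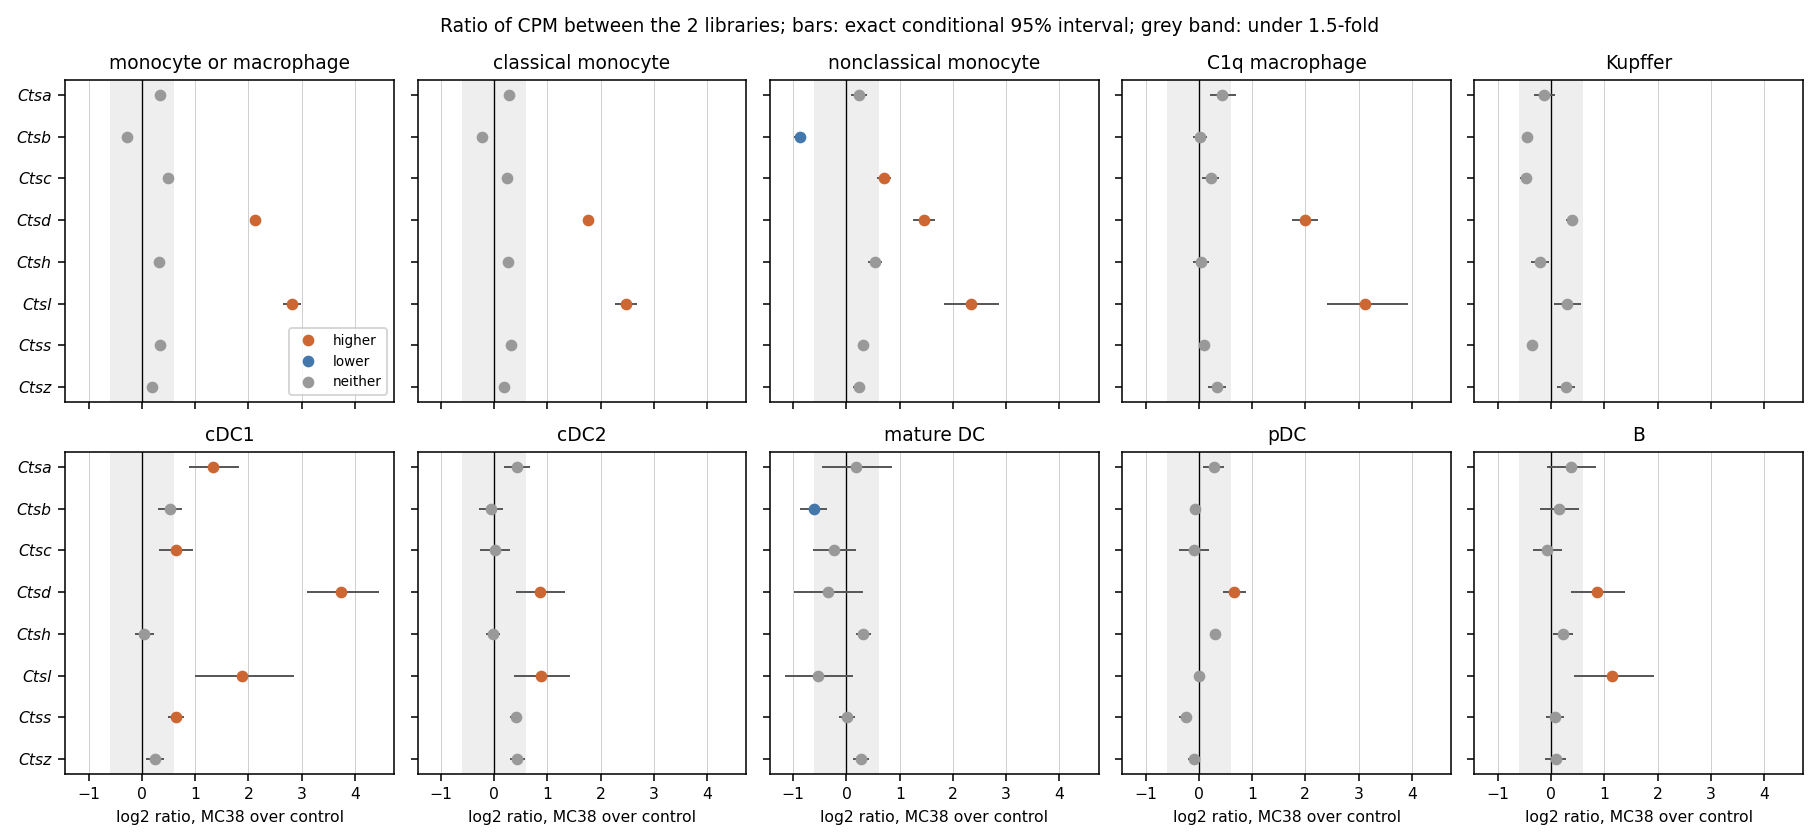
Log2 ratio of MC38 over control for the 8 cathepsins in 10 classes and sub gates, with exact conditional 95% intervals; orange points were called higher, blue lower and grey neither, and the grey band marks changes under 1.5-fold. Ctsd and Ctsl lie right of the band in all 4 monocyte and macrophage panels and inside it in Kupffer-like cells.

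The 3 gates within the monocyte- or macrophage-like class gave the same call for Ctsd and Ctsl. In classical monocyte-like cells, marked by genes such as Ly6c2 and Chil3, Ctsd was 182 and 617 CPM and Ctsl 44.1 and 244 CPM, and these 2 were the members called, both higher (9.28% of genes were higher and 12.3% lower in that gate). In C1q macrophage-like cells Ctsd was 319 and 1270 CPM and Ctsl 35.7 and 309 CPM in 70 and 629 cells, again the 2 called, against 7.47% of genes higher and 8.4% lower. In nonclassical monocyte-like cells, a gate filled by different clusters in the 2 libraries, Ctsd was 140 and 384 CPM and Ctsl 19.8 and 100.4 CPM. Ctsc was called higher beside them, at 418 and 681 CPM (3 members higher and 1 lower, against 8.86% and 11.1% of genes). The member called lower there was Ctsb, at 1235 CPM in control and 671 CPM in MC38, a log2 difference of -0.88 with an interval from -0.98 to -0.78.

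Different clusters filled the class in the 2 libraries. Leiden clusters built without the cathepsins and related genes put 51.1% of the control cells in cluster 9 (led by genes such as Lyz2 and Ifi27l2a), and 35.8% and 26.3% of the MC38 cells in clusters 0 and 5 (led by Chil3 and by Chil3 and Vcan), which held 2.34% and 0.557% of the control cells. A cluster that is mostly from 1 library may be that library. Clusters 0, 9, 10 and 17 had at least 20 cells of the class in each library, and within all 4 Ctsd and Ctsl were called higher in MC38. Cluster 0 had only 21 such control cells, and its log2 interval for Ctsl was wide, from 1.21 to 5.04. Other members were called higher in some of these clusters: Ctsa, Ctss and Ctsz in cluster 0, Ctsc and Ctss in cluster 9 and Ctsh in cluster 17. Cluster 17, led by the interferon-induced Cxcl10 and Cxcl9, was the best balanced, with 120 control and 156 MC38 cells, and there Ctsd was 157 and 466 CPM and Ctsl 33.4 and 167 CPM. In that cluster 10.8% of genes were called higher, and in clusters 0, 9 and 10 the share was 1.86%, 7.87% and 7.0%. Lower calls made up 3.81%, 5.57%, 7.02% and 10.5% of genes in clusters 0, 9, 10 and 17, and no member was among them. Within cluster 9 Ctsd was 183 and 477 CPM, and within cluster 10, which as a whole was cDC2-like and led by Cd209a, 59.2 and 131 CPM.

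The Ctsb level of nonclassical monocyte-like cells lay beside a cluster of the control library. Cluster 28, led by Ace and Nr4a1, held 111 control and 5 MC38 cells and had 1534 CPM of Ctsb in control with 11.9 CPM of Ctsl. It held 48.8% of the nonclassical monocyte-like cells in control and 3.16% in MC38, where 69.0% lay in cluster 7, led by C1qb and Axl. The part of this different mixture in the Ctsb, Ctsc, Ctsd and Ctsl calls of the gate was not tested.

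Within the MC38 library, Arg1, the arginase gene that marks a state of tumor macrophages, went with some cathepsins and not with others. Monocyte- or macrophage-like cells with 3 or more Arg1 UMIs (440 cells) were set beside those with 0 (2821 cells). Ctsd was 528 CPM in cells without Arg1 and 1818 CPM in cells with it, Ctsl 203 and 486 CPM, and Ctsb 592 and 992 CPM, and these 3 members were called higher and none lower, against 15.8% and 4.32% of genes. Ctsa, Ctsc, Ctsh, Ctss and Ctsz differed by less than 1.5-fold, from a log2 difference of -0.13 for Ctsh to 0.23 for Ctsz. In C1q macrophage-like cells, here at the 10% mitochondrial limit (142 and 251 cells), the same 3 were called, against 11.7% of genes higher and 5.59% lower. Ctsd was 520 CPM without and 2478 CPM with Arg1. In classical monocyte-like cells (186 and 2051 cells) Ctsd and Ctsl were called and Ctsb, at 569 and 662 CPM, was not, against 9.91% of genes higher and 3.97% lower. Arg1 is also a hepatocyte gene, at 1957 CPM in the hepatocyte-gated barcodes of that library, and cells deeper in UMIs reach 3 Arg1 UMIs more readily; the part of both in the grouping was not tested. Cells of the MC38 library with no Arg1 UMI, at 528 CPM of Ctsd and 203 CPM of Ctsl, still stood above the control class at 158 and 34.1 CPM.

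**Figure D4:**
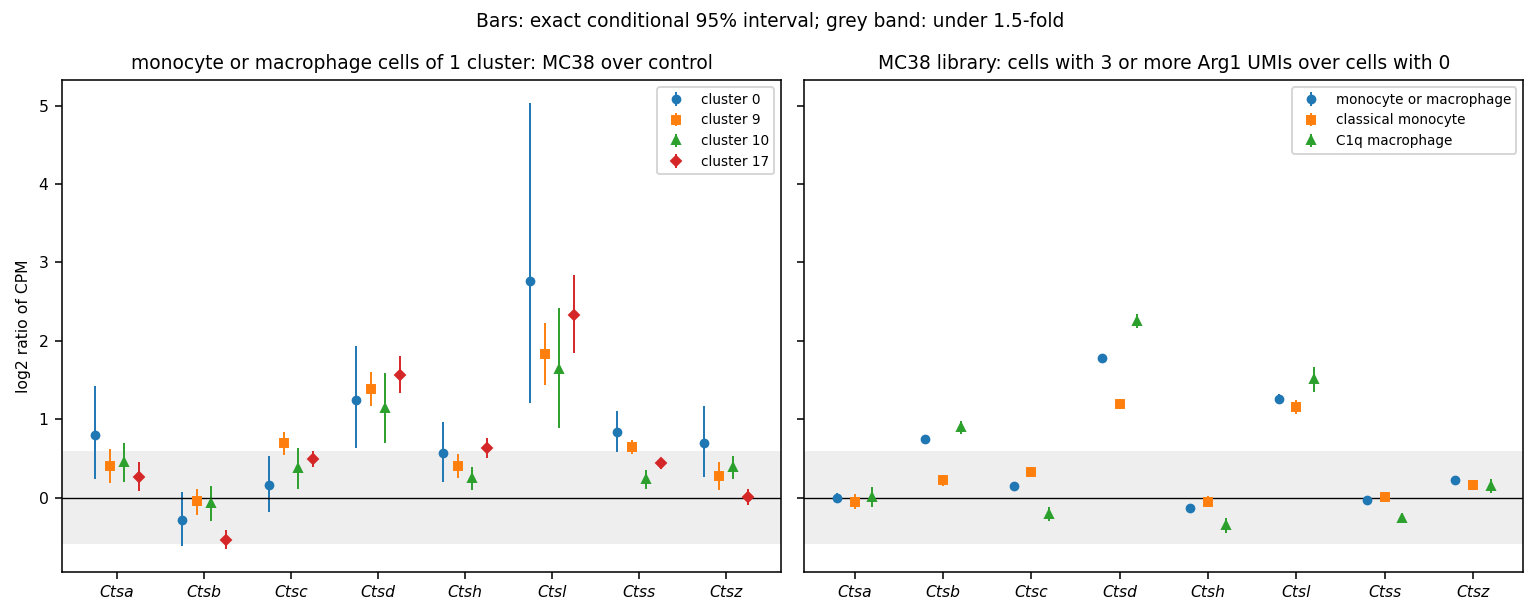
Log2 ratio of each cathepsin within monocyte- or macrophage-like cells, with exact conditional 95% intervals and a grey band for changes under 1.5-fold. Left, MC38 over control within 4 clusters, where Ctsd and Ctsl lie above the band in each; right, cells of the MC38 library with 3 or more Arg1 UMIs over cells with 0, where Ctsd and Ctsl lie above the band in 3 gates and Ctsb in 2.

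Single clusters of the MC38 library spread widely in these genes. Cluster 30 (74 MC38 cells and 1 control cell, led by Saa3, Prg4 and Alox15), held 4805 CPM of Ctsd (4693 to 4919), above the 2555 CPM of Kupffer-like cells. Cluster 11 (430 MC38 and 2 control cells, led by Spp1, Cd14 and Mmp12) held 1194 CPM of Ctsd and 522 CPM of Ctsl. Cluster 7, led by C1qb and Axl, held 405 CPM of Ctsd and 140 CPM of Ctsl, the lowest of the large MC38 monocyte clusters 0, 5, 7 and 11. Cluster 23 (171 MC38 and 3 control cells), led by Tnnt2, Hmga2 and Krt14 and given no cell type name, held 994 CPM of Ctsl (920 to 1072) and 86.0 CPM of Ctsd, with a Ctsl UMI in 42.1% of its cells.

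Cathepsin S, encoded by Ctss, is the main protease that finishes invariant chain degradation in dendritic cells, B cells and macrophages, and stays active at neutral pH. It was 1534 and 1947 CPM in monocyte- or macrophage-like cells and 2317 and 1813 CPM in Kupffer-like cells, so the 2 classes stood in opposite order in the control and MC38 libraries. With Leiden clusters, and with the mean over cells, Kupffer-like cells were highest in both libraries, and the opposite order was lost. cDC2-like cells held 867 and 1154 CPM, pDC-like cells 726 and 614 CPM, mature DC-like cells 605 and 607 CPM, B-like cells 402 and 423 CPM and cDC1-like cells 339 and 530 CPM. All but the cDC1-like value stayed under 1.5-fold between libraries. Of the dendritic classes, cDC1-like cells had the lowest Ctss in both libraries.

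Cathepsin B, encoded by Ctsb, is a cysteine endopeptidase that also removes dipeptides from the carboxyl end. Kupffer-like cells held 5316 CPM in control and 3899 CPM in MC38 (a log2 difference of -0.45), pDC-like cells 1634 and 1547 CPM, and monocyte- or macrophage-like cells 784 and 648 CPM. These 3 classes kept this order in both libraries, and each step exceeded counting error. cDC2-like cells held 267 and 257 CPM, cDC1-like 153 and 220 CPM and B-like 83.4 and 93 CPM. In mature DC-like cells, which express Ccr7 and Fscn1, Ctsb was 260 and 170 CPM, a log2 difference of -0.62 (-0.87 to -0.36), and it was the only member called lower there, with none higher (5.43% and 11.6% of genes).

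Cathepsin C, encoded by Ctsc, is a dipeptidyl peptidase that activates the serine proteases of granules. Kupffer-like cells held 1954 and 1412 CPM and monocyte- or macrophage-like cells 543 and 768 CPM. The other 8 classes of the plot of levels held between 44.8 and 168 CPM, and in the MC38 library most neighbours in their order did not differ beyond counting error. Its lower value in Kupffer-like cells of the MC38 library, a log2 difference of -0.47, moved against the higher value in monocyte- or macrophage-like cells, 0.50, and neither reached 1.5-fold.

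Cathepsin H, encoded by Ctsh, acts mainly as an aminopeptidase, and cathepsin Z, encoded by Ctsz, as a carboxypeptidase. Ctsh was highest in pDC-like cells of the control library, and so was Ctsz at the limits used here. With 10% for all classes, Ctsz was highest in the 40 control Kupffer-like cells, at 827 CPM (652 to 1035). With 30% for all, pDC-like and Kupffer-like cells did not differ beyond counting error. Both genes were lower in B-like and cDC1-like than in the other antigen-presenting classes of both libraries. Ctsh was 1204 and 1493 CPM in pDC-like cells, 804 and 696 CPM in Kupffer-like, 728 and 718 CPM in cDC2-like, 723 and 902 CPM in mature DC-like, 600 and 755 CPM in monocyte- or macrophage-like, 298 and 347 CPM in B-like and 270 and 279 CPM in cDC1-like cells. Ctsz was 774 and 726 CPM in pDC-like, 666 and 811 CPM in Kupffer-like, 636 and 770 CPM in mature DC-like, 623 and 709 CPM in monocyte- or macrophage-like, 556 and 752 CPM in cDC2-like, 307 and 366 CPM in cDC1-like and 281 and 298 CPM in B-like cells. No class of these 7 passed 1.5-fold for either gene. In the MC38 library the top 5 classes for Ctsz did not differ between neighbours beyond counting error, whereas NK- or ILC1-like cells held 47.1 and 65.1 CPM.

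Cathepsin A, encoded by Ctsa, is a serine carboxypeptidase that also protects the lysosomal enzymes beta-galactosidase and neuraminidase from breakdown. Kupffer-like cells held 549 and 504 CPM, monocyte- or macrophage-like cells 310 and 391 CPM, pDC-like cells 232 and 281 CPM and cDC2-like cells 199 and 267 CPM. B-like cells held 53.9 and 69.7 CPM, mature DC-like cells 34.5 and 39.2 CPM and cDC1-like cells 29.3 and 74.5 CPM. The cDC1-like value was the one called, as higher.

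In cDC1-like cells 5 members were called higher in MC38 (against 7.23% of genes) and none lower (7.87%): Ctsa, Ctsc at 73.8 and 116 CPM, Ctsd, Ctsl at 7.33 and 27.1 CPM, and Ctss. The Ctsd and Ctsl calls rested on few cells. The top 5% of MC38 cells held 86.9% of the class's Ctsd UMIs and 64.6% of its Ctsl UMIs. They held 38.6% for Ctsa, 34.6% for Ctsc and 19.3% for Ctss. After thinning to 1000 UMIs, which leaves fewer UMIs, none of the 5 was called. Summed Kupffer markers were 34.5 CPM in control and 150.0 CPM in MC38. Monocyte or macrophage markers were 1335 and 1172 CPM, and hepatocyte markers 138 and 549 CPM. The part of these in the calls was not tested. In cDC2-like cells Ctsd and, at 37.8 and 69.8 CPM, Ctsl were called higher (8.03% of genes higher and 7.5% lower), with the top 5% of MC38 cells holding 21.3% and 38.1% of those UMIs. In pDC-like cells Ctsd alone was called, at 151 and 239 CPM (5.62% of genes higher and 4.95% lower). The top 5% of MC38 pDC-like cells held 41.5% of these UMIs, and the log2 difference went from 0.66 to -0.07 after thinning.

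In B-like cells Ctsd and Ctsl were called higher and none lower (6.51% and 6.55% of genes), and 91.7% of the Ctsl UMIs of the MC38 library lay in the top 5% of cells, with a Ctsl UMI in 1.79% of cells after thinning. Hepatocyte markers moved with this comparison, as given above, and all 8 monocyte or macrophage markers were detected in B-like cells, at 508 and 611 CPM in sum. Of the T-like and NK- or ILC1-like classes, 5 members were called higher in the first (Ctsb, Ctsc, Ctsl, Ctss and Ctsz, against 9.76% of genes) and 4 in the second (Ctsb, Ctsh, Ctsl and Ctss, against 5.84%). No member was called lower in either, where 5.72% and 5.61% of genes were. Their summed monocyte or macrophage markers were 1150 and 1512 CPM in T-like and 1071 and 1163 CPM in NK- or ILC1-like cells, and the part of these in the calls was not tested. In basophil- or mast-like cells Ctsh and Ctss were called higher (5.87% of genes higher and 7.33% lower), from 1 and 4 control UMIs.

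Related genes of the lysosome were read from 7 lists with 104 genes in all, of which the monocyte- or macrophage-like class is given. MHC class II loading genes were mostly lower in MC38, with 7 of 11 called lower (12.9% of all genes were) and a median log2 difference of -1.01. Cluster 10, led by class II genes such as H2-Ab1 and H2-Eb1 beside Cd209a, made up 13.8% of the class in control and 1.62% in MC38, and its part in this was not tested. Cd74, the invariant chain that Ctss and Ctsl cut, was 5435 and 2708 CPM, H2-Oa 15.7 and 5.67 CPM and H2-Ob 11.4 and 2.92 CPM. The gene called higher was Ifi30, the lysosomal thiol reductase, at 937 and 1610 CPM. Other cathepsins had 3 of 6 called lower and none higher, against 12.9% and 10.8% of all genes. Those lower included Ctsg, the neutrophil granule protease, at 53.6 and 27.9 CPM, and Ctsw at 9.26 and 3.31 CPM.

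Other lysosomal hydrolases had 5 of 32 called higher and 4 lower, with a median of 0.34. These counts are near the shares over all genes of the class, 10.8% higher and 12.9% lower, and set the list apart in neither direction. Higher were Acp5, the tartrate-resistant acid phosphatase, at 29.0 and 109 CPM, Gla at 6.28 and 19.0 CPM and Lgmn, the asparaginyl endopeptidase legumain that processes cathepsins, at 96.6 and 213 CPM. Lower were Arsb at 17.8 and 7.24 CPM and Ids at 56.7 and 30 CPM. Among lysosome membrane genes and cofactors 2 of 16 were called higher, also near the 10.8% of all genes: Cd63 at 10.7 and 41.1 CPM and Scarb2 at 85.4 and 138 CPM, with a median of 0.06. The vacuolar proton pump had 3 of 16 called higher, among them Atp6v0a1 at 20.9 and 37.1 CPM and Atp6v0d2, which had 0 UMIs in control and 73 in MC38. Sorting genes and the TFEB family had 3 of 10 called higher with a median of 0.02, among them Tfec at 12.1 and 50.2 CPM and Mitf at 11.4 and 21.1 CPM. No gene of the pump or sorting lists was called lower. The shares over all genes for these lists are the 10.8% higher and 12.9% lower given above.

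The cystatin and serpin inhibitors had 4 of 10 compared genes called higher and none lower, against 10.8% and 12.9% of all genes. Cstb, the cystatin of the cytosol, was 172 and 321 CPM and Serpinb6a 9.94 and 21.3 CPM. The others, Stfa2l1 and Stfa3, named after their values were seen, had 0 UMIs in control against 27 and 30 in MC38. Stfa2l1 was among the leading genes of cluster 20, which was neutrophil-like and held 12 control and 234 MC38 cells. The part of RNA from such cells in the Stfa2l1 and Stfa3 counts was not tested. Cst3, the secreted cystatin C, was 2954 and 2407 CPM in this class and was not called. The list's median was 0.53 over all 10, and -0.28 over the 7 with more than 3 UMIs in each library, so the sign turned on rarely counted genes. In cDC2-like cells Cst3 was 4661 and 11272 CPM, and was called higher there.

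**Figure D5:**
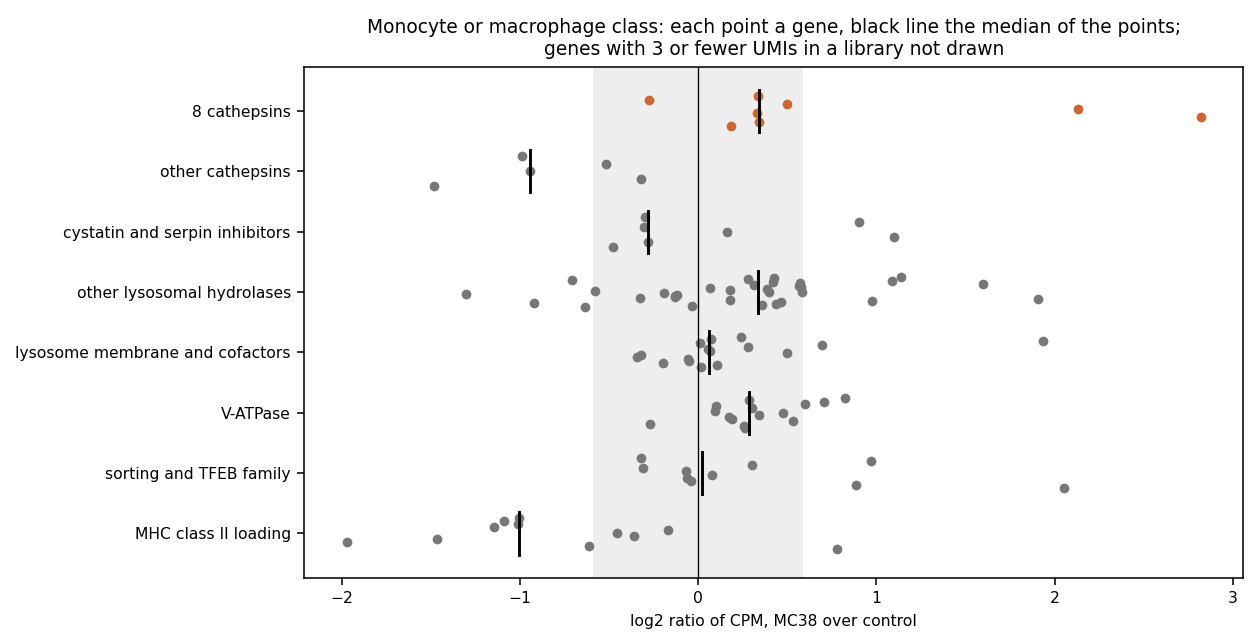
Log2 ratio of MC38 over control in monocyte- or macrophage-like cells for the 8 cathepsins (orange) and 7 related lists (grey), each point a gene with more than 3 UMIs in each library and each black line the median of the points. MHC class II loading genes lie mostly left of the grey band of changes under 1.5-fold, with Ifi30 to its right, and Ctsd and Ctsl lie right of it.

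The members also differed in which genes resembled them across 21 points, each a class in a library with at least 50 cells. The points share libraries and depth, so Pearson's r of the log2 levels is a description. Ctsh and Ctss had r = 0.92, Ctsh and Ctsz 0.91, and Ctsa and Ctsb 0.87. Ctsd stood apart from the others, with r from -0.45 with Ctsh to 0.29 with Ctsa. The genes most like each member were Tcirg1 for Ctsa (0.88), Tmem86a for Ctsb (0.92), Dram2 for Ctsc (0.92), B4galt1 for Ctsd (0.90), Scpep1 for Ctsh and Ctsz (0.94 for both), P2ry13 for Ctsl (0.91) and Ifi30 for Ctss (0.94).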

How the data were processed

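UMI counts per gene and cell, in 1 sparse matrix per library, were used as deposited by the authors. The submitters' processing notes name Cell Ranger 2.2, STAR, Seurat 2.3.4, R 3.6.0, bcl2fastq and the build GRCm38.p6, without their roles. The members and lists were chosen with earlier results of these data known. From the counts, cells with at least 200 genes, a mitochondrial share of at most 10% and no doublet call by scrublet (617 and 1727 calls) were kept. Kupffer-like, mature DC-like and C1q macrophage-like cells used 30%, a limit added after the cell counts were seen. The Arg1 groups, the clusters and the likeness points used 10% for all classes. Cells were gated by at least 3 of 8 markers, and 12.6% of control and 36.2% of MC38 cells stayed unassigned. Summed counts were scaled to CPM, with exact Poisson, exact conditional (ratios) and exact binomial (shares) 95% intervals, which cover counting error only. A gene was called at 1.5-fold or more, with an interval excluding no change and at least 10 UMIs. Folds of single genes with 3 or fewer UMIs in a library were not set against the alternatives. With 1 library per group no p-value was computed. Related genes were named by rule: per list and class, up to 2 genes called in each direction, ranked by the end of the log2 interval nearest 0, plus Lgmn, Cst3, Cstb, Cst7, Cd74 and Ifi30. Likeness used log2(CPM + 10). Leiden clusters, built without the members and related genes, served within the class and as an alternative. The scripts were tested on simulated data. Tools were scanpy 1.11.5 and leidenalg 0.10.2 for cells and clusters, scipy 1.17.1 for intervals, scikit-learn 1.9.0, matplotlib 3.10.9 for figures, and pandas 2.3.3 with numpy 2.4.6 under Python 3.11.15.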

Additional observations from a re-analysis of the deposited data

Results flagged for a closer look

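Ctsb, the cysteine endopeptidase cathepsin B, differed between the libraries in opposite directions in different classes. Its log2 difference was -0.62 in mature DC-like cells and -0.88 in nonclassical monocyte-like cells, and 0.82 in T-like and 0.72 in NK- or ILC1-like cells. In T-like cells the share with a Ctsb UMI was 57.4% in control and 51.9% in MC38, the top 5% of cells held 31.5% and 52.3% of the UMIs, and the thinned shares of 11.3% (9 to 13.9) and 15.1% (11.7 to 19.0) overlapped. In cluster 6, which was T-like, Ctsb was 201 and 202 CPM. The other T-like clusters held more in MC38. Cluster 13, led by Cd209a beside Trac, held 357 and 630 CPM. Cluster 15 held 74.1 and 108 CPM, with intervals that overlapped. Each class is 1 library against 1, so the difference between classes was not tested.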

How the results depend on the processing

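No paired analysis was possible because each group is 1 library. The 2 higher and 0 lower members of monocyte- or macrophage-like, classical monocyte-like and C1q macrophage-like cells were the count under each alternative run for them, and Ctsd ranged from 1.75 to 2.2 and Ctsl from 2.44 to 3.30 in log2 difference in the first. Of 230 alternative values of counts, 215 stayed within 1.5 times the value reported. Of 752 alternative values of single genes, 628 stayed within the counting interval of the value reported, 123 moved outside it and 1 reversed. In Kupffer-like cells 2 members were higher with no mitochondrial limit and 2 lower after thinning to 1000 UMIs, instead of 0. In cDC1-like cells the 5 higher members became 2 with Leiden clusters, 0 after thinning and 3 with the mean over cells, and in cDC2-like cells 2 became 1 with called doublets kept. In mature DC-like cells the 1 lower member became 0 with no mitochondrial limit, 2 with a gate of at least 4 markers and 3 with the mean over cells. In pDC-like cells the 1 higher member became 0 with Leiden clusters, after thinning and with the mean over cells, and Ctsd turned to -0.070 after thinning. In B-like cells 1 member was lower with Leiden clusters instead of 0, and 1 higher instead of 2 after thinning. With a mitochondrial limit of 5% for all classes, 0 members were highest in control Kupffer-like cells, against 6 at 10%, but that count is fixed by cell number, since only 8 control Kupffer-like and 8 pDC-like cells were left and a class needed 10 to be ranked. For the other changes the cause was not tested, except that thinning leaves fewer UMIs.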
